A study of Homo sapiens with 18 samples.

Results

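The regions described here are runs of closely spaced H3K4me3 peaks in H2087-LCC cells (here LCC), a latency-competent derivative of the human lung adenocarcinoma line H2087. They were chosen from the LCC H3K4me3 library alone: peak summits with a score of at least 10 were joined when neighbours lay within 3 kb, and sites with 3 or more summits were kept. The rule gave 31 domains among 21304 LCC H3K4me3 sites, or 0.146%. The remainder were 20735 sites with 1 summit and 538 with 2. The 31 domains held 95 of 21906 summits, 0.434%. The score was deposited by the authors and is read here as the −log10 of a peak-calling p or q value. It ranks peaks within 1 library. The same minimum of 10 was applied to the H3K4me3 lists of all conditions. Where scores of different libraries stand side by side below, they are a description and do not measure a difference in signal.

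H3K4me3 is a histone mark laid down around transcription start sites, where H3K27ac marks active promoters and enhancers and H3K4me1 marks enhancers and the shoulders of promoters. At a typical promoter H3K4me3 forms a peak over the start site, H3K27ac overlaps it, and H3K4me1 lies outside it. Long stretches of H3K4me3 are known from genes of cell identity and from neighbouring promoters. The deposited lists give 1 summit per listed peak and no peak widths. The domains are therefore runs of listed summits, and they were not chosen by peak width. Separate peaks and a wide stretch split at the peak-calling step cannot be told apart here.

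The 3 marks were mapped by ChIP-seq, the sequencing of DNA that is precipitated with an antibody to a mark, in 13 libraries with a peak list from 4 conditions. These were untreated LCC, LCC exposed to 100 nM TGF-β1 for 4 days (here TGFb), H2087-LCC-SO1 (here SO1) and H2030, a separate lung adenocarcinoma line. The H2087-derived cells were grown in serum medium with added hormones, selenite, transferrin, albumin and epidermal growth factor, and H2030 in plain serum medium, so line and medium cannot be told apart. LCC H3K27ac had 2 biological replicates and every other library was single. No comparison between conditions therefore has a p-value, and experimental error is measured only by the difference between the LCC H3K27ac replicates. Read depth is unknown for every library. Intervals below are Wilson 95% intervals and cover counting error only. Coordinates are hg19. Domains are given by position and no gene is named, since no hg19 annotation was used here. They are numbered from 1 to 31 in genome order.

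The domains were short and regular in size. Their spans, from first to last summit, ran from 1787 to 7000 bp with a median of 3904 bp, and the quartiles were 3207 and 4598 bp. Of the 31 domains, 29 had 3 summits and 2 had 4. The 64 gaps between neighbouring summits ran from 626 to 2878 bp with a median of 2003 bp. Chromosome 17 held 6 domains (19.4% of them, against 5.77% of all LCC sites), chromosome 11 held 4, and chromosomes 12, 14 and 16 held 3 each. Chromosomes 5, 8, 10, 13, 15, 18, 21 and 22 held 0. With 31 domains these shares are a description only.

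The domains varied in how their summit scores were spread. The strongest summit lay at an end of the run in 21 domains and inside it in 10. Its score ranged from 15.5 to 582 with a median of 209, beside a median of 327 at single-summit sites and 267 at sites with 2 summits. The domains were thus not the strongest H3K4me3 sites of LCC. The other 64 summits had a median score of 23.2 and quartiles of 13.2 and 60.8. In 16 domains the strongest summit reached the median of the LCC list, 189, while in 5 the second strongest did so too. All summits reached it in 1 domain. In 7 domains no summit reached a score of 50. These values chose the members and are given as a description.

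Membership turned on weak peaks near the limits of the rule. The lowest summit of any member scored 10.1, in domain 3, and the longest gap in a member was 2878 bp, in domain 2. A run at chr19:27732119-27736434 was left out because its deciding summit scored 9.94. A run at chr15:91473560-91478689 was left out because of a gap of 3080 bp.

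**Figure D1:**
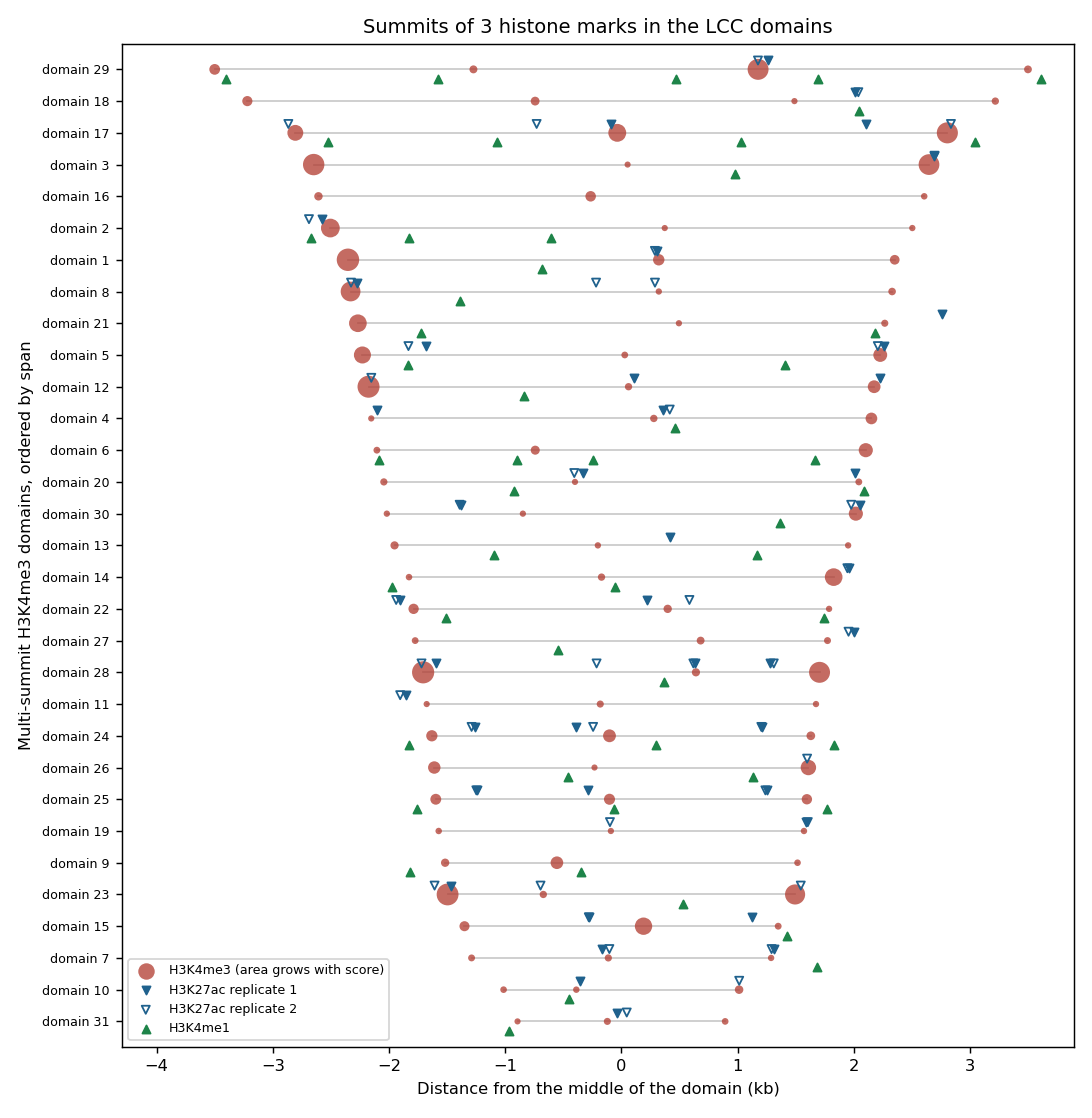
Summits of LCC libraries in the 31 domains, 1 row per domain, ordered by span, against the distance from the middle of the domain in kb. Red circles are H3K4me3 summits with an area that grows with the score, blue triangles are H3K27ac summits (filled, replicate 1; open, replicate 2) and green triangles are H3K4me1 summits. H3K27ac triangles mostly sit over a red circle, H3K4me1 triangles often sit between circles, and domain 29 is the longest at 7000 bp.

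The longest domain was domain 29, at chr19:12944863-12951863, with 4 H3K4me3 summits spread over 7000 bp. In LCC these scored 106, 41.8, 501 and 38.6 in order along the chromosome. It also held 5 LCC H3K4me1 summits, more than any other domain, whereas each H3K27ac replicate had 1 summit there, with scores of 9.57 and 14.8 beside the main H3K4me3 peak. A neighbouring run, domain 28 at chr19:12845183-12848595, had 2 strong H3K4me3 summits, with scores of 567 and 503, around a weak one of 46.0. In contrast to domain 29 it carried 3 and 4 H3K27ac summits in the LCC replicates. The other domain with 4 summits was domain 18, at chr14:105434103-105440541, with scores of 90.8, 59.6, 11.5 and 29.7. Its single H3K27ac summit lay between the last 2 H3K4me3 summits in both replicates, with scores of 108 and 258, near an H3K4me1 summit of 74.0. There H3K27ac stood away from the strongest H3K4me3 peak.

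Strong peaks stood together in few domains. Domain 17, at chr14:102780913-102786525, was the 1 domain in which every summit passed the list median, with scores of 273, 356 and 510. Its 3 summits were spaced 2771 and 2841 bp apart, and 4 H3K4me1 summits lay around and between them. Domain 3, at chr3:69129105-69134401, had summits of 526 and 492 at its ends, with one of 10.1 between them. H3K27ac lay only at the right-hand end, with scores of 305 and 428 in the LCC replicates. Domain 23, at chr17:7142529-7145520, had summits of 549 and 460 at its ends, and domain 5, at chr6:1312453-1316910, had 320 and 200.

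Other domains had 1 strong peak beside weaker ones. Domain 1, at chr1:156470352-156475058, scored 582, 124 and 79.7. H3K27ac in both replicates, with 267 and 283, lay at the second of these and not at the strongest. Domain 12, at chr11:119187553-119191905, scored 558, 29.9 and 164. Domain 8, at chr9:70646265-70650926, scored 444, 13.1 and 34.6, and domain 2, at chr2:234328394-234333403, scored 395, 11.1 and 13.0. In domains 2 and 8 the strongest H3K27ac summit of each replicate lay at the strongest H3K4me3 summit. Domain 21, at chr16:85203370-85207905, scored 347, 12.2 and 26.1, and its H3K27ac summit, in replicate 1 only, lay past the last H3K4me3 summit. The position of H3K27ac within the run thus varied from domain to domain.

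Domains 24 and 25, neighbours on chromosome 17, were alike in layout. Domain 24, at chr17:18964738-18968000, had H3K4me3 scores of 120, 166 and 57.1 with gaps of 1529 and 1733 bp. Domain 25, at chr17:19090861-19094055, had 109, 114 and 96.0 with gaps of 1495 and 1699 bp. Both had 3 H3K4me3 and 3 H3K4me1 summits in each of the 4 conditions, which no other domain did. LCC replicate 1 placed H3K27ac summits 375, 1240 and 2841 bp into domain 24 and 358, 1308 and 2850 bp into domain 25. The handling of reads that match both places is not known, and whether the domains share sequence was not tested, so their marks are uncertain as separate measurements.

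In 7 domains every H3K4me3 summit was weak, yet H3K27ac there could be strong. Domain 27, at chr17:57861217-57864766, had H3K4me3 scores of 21.0, 40.0 and 23.7 and H3K27ac scores of 263 and 372 in the LCC replicates. Domain 11, at chr11:65880042-65883393, had 11.0, 26.1 and 12.9, with H3K27ac of 131 and 195. Domain 20, at chr16:73101110-73105198, had 28.2, 11.4 and 21.8, with H3K27ac of 110 and 121. Against these, domain 7, at chr7:1076381-1078959, had H3K4me3 scores of 22.7, 27.6 and 14.0 and H3K27ac of 11.0 and 17.6 at most. Domain 31, at chrX:20379702-20381489, was the shortest at 1787 bp, with H3K4me3 of 10.6, 25.3 and 19.0 and H3K27ac of 139 and 198. H3K27ac medians over the LCC lists were 12.6 and 13.5, so 4 of these 5 carried H3K27ac far above the median of their list. The remaining weak domains were 13 and 19.

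The other marks of LCC were not used by the rule. H3K27ac of both replicates lay inside the span, widened by 500 bp on each side, in 25 of 31 domains, 80.6% (63.7 to 90.8), beside 57.4% of all LCC H3K4me3 sites. The shares were 74.0% (70.1 to 77.5) at sites with 2 summits and 57.0% (56.3 to 57.6) at single-summit sites. LCC H3K4me1 lay in 28 of 31 domains, 90.3% (75.1 to 96.7), beside 33.9% of all sites, 81.4% of sites with 2 summits and 32.6% of single-summit sites. Both marks together were found in 23 domains, 74.2%, against 13.4% of single-summit sites. A longer region has more room for a summit, however, and a widened domain is several times longer than a widened single summit. Without the widening 18 domains, 58.1%, held H3K27ac of both replicates, since 7 had it just outside the first or last H3K4me3 summit in at least 1 replicate.

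In windows of equal size the order was the reverse for both marks. Within 1 kb on each side of the strongest summit, H3K27ac of both replicates was found in 14 of 31 domains, 45.2% (29.2 to 62.2). Single-summit sites had it in 69.3% (68.6 to 69.9), and those whose score lay between the quartiles of the domains' strongest scores in 62.9% (61.7 to 64.0). The interval of the domains overlaps that of the matched sites and lies below that of all single-summit sites. For H3K4me1 the fixed window gave 51.6% (34.8 to 68.0) in the domains, 67.5% (63.4 to 71.3) at sites with 2 summits and 83.6% (82.7 to 84.5) at matched single-summit sites. Here the interval of the domains lay below that of matched single-summit sites. Counted per length, the domains held 0.272 and 0.279 H3K27ac summits per kb in the LCC replicates, against 0.633 and 0.687 at single-summit sites, and 0.337 H3K4me1 summits per kb against 0.350. The length of a domain includes its gaps, and that of a single-summit site is only the 500 bp on each side of its summit. A lower H3K27ac density in the domains is thus largely built in. The higher share over the span and the lower share around the main peak are thus both seen in the same domains.

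**Figure D2:**
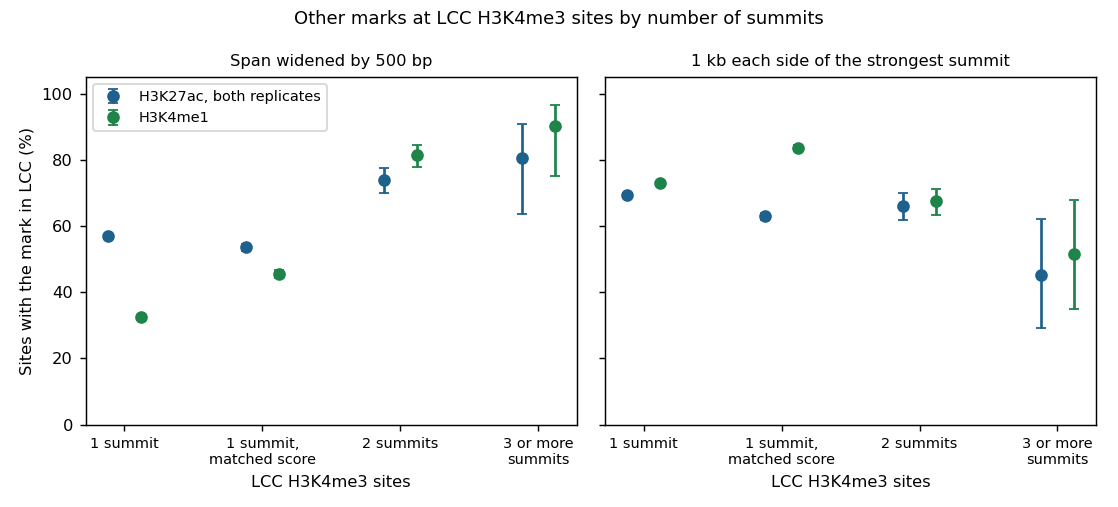
Share of LCC H3K4me3 sites, in percent, that carry H3K27ac of both LCC replicates (blue) or LCC H3K4me1 (green), for sites with 1 summit, sites with 1 summit matched to the domains in score, sites with 2 summits and domains with 3 or more. Points are shares and bars Wilson 95% intervals. Over the span (left) the domains reach 80.6% and 90.3%, and in a fixed window around the strongest summit (right) 45.2% and 51.6%, the lowest of the 4 classes.

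H3K27ac and H3K4me1 took different places along the domains. In LCC, 29 of 42 H3K27ac summits of replicate 1 and 31 of 43 of replicate 2 lay within 250 bp of an LCC H3K4me3 summit, with median distances of 96 and 112 bp. Of the 52 H3K4me1 summits, 22 did, 42.3% (29.9 to 55.8), and their median distance was 304 bp. The median distance was thus larger for H3K4me1, while the interval of its share overlaps narrowly with that of replicate 1 (54.0 to 80.9) and not with that of replicate 2 (57.3 to 83.3). Of the 52 H3K4me1 summits, 39 lay between the first and the last H3K4me3 summit. An H3K4me1 summit stood in 34 of the 64 gaps, 53.1% (41.1 to 64.8), and an H3K27ac summit in 26 and 25 gaps in the replicates. The share of gaps with H3K4me1 has no counterpart at single-summit sites and is a description only. At single-summit sites, within 500 bp, 42.5% of H3K4me1 summits lay within 250 bp, with a median of 302 bp. That window caps the distance at 500 bp, whereas the domains include their gaps, so nothing is read from the likeness of the medians. Single-summit sites had LCC H3K4me1 in 32.6% within 500 bp and in 73.0% within 1 kb. For H3K27ac the single-summit shares were 84.3% and 85.9% in the replicates, higher than in the domains. The same window limits these shares, so nothing is read from that contrast either.

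H3K27ac was often not at the strongest H3K4me3 peak of a run. The strongest H3K27ac summit was nearest to the strongest H3K4me3 summit in 11 of 27 domains in replicate 1, 40.7% (24.5 to 59.3), and in 13 of 26 in replicate 2, 50.0% (32.1 to 67.9). By summit, H3K27ac lay within 500 bp of 41.9% and 54.8% of the strongest H3K4me3 summits in the 2 replicates and of 37.5% and 32.8% of the others. Single-summit sites with scores between the quartiles of the strongest had 59.3% and 68.0%, and those between the quartiles of the others 40.8% and 45.6%. Domain 30, at chr20:3787984-3792021, shows the pattern: its H3K4me3 summits scored 13.0, 12.2 and 209, while the stronger of its H3K27ac summits, with 255 and 324, lay between the 2 weak ones. In domain 10, at chr11:12714115-12716142, the replicates themselves differed, with the single H3K27ac summit 662 bp in for replicate 1 and 2028 bp in for replicate 2. A joined peak has 1 summit wherever its signal is highest, and peak widths are not in these files.

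Domains without H3K27ac were few. In 3 of 31, or 9.68% (3.35 to 24.9), neither replicate had a summit, beside 25.9% of all sites. At sites with 2 summits the share was 14.3%, inside the interval of the domains, and a longer span has more room for a summit. Domain 6, at chr6:108435027-108439235, had H3K4me3 of 21.3, 64.4 and 209, with the nearest H3K27ac summits 15866 and 15944 bp away. It held 4 LCC H3K4me1 summits, none above 10.9. Domain 9, at chr11:1592848-1595881, had H3K4me3 of 49.2, 160 and 17.2, and its nearest LCC H3K27ac summits lay 118880 and 118973 bp away. Domain 16, at chr14:62035274-62040488, had H3K4me3 of 51.3, 100 and 16.1, no H3K4me1, and H3K27ac no nearer than 3878 and 3449 bp. These 3 were marked by H3K4me3 with no H3K27ac summit in LCC. A further 3 domains had H3K27ac in 1 replicate only, domain 13 and domain 21 in replicate 1 and domain 26, at chr17:48071123-48074343, in replicate 2. H3K4me1 was absent in LCC from domains 11, 16 and 19.

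Domain 19, at chr16:46403665-46406809, stood apart from all others. Its 3 counted H3K4me3 summits scored 15.5, 12.1 and 14.2, and H3K27ac reached 47.2 and 31.0 in the LCC replicates. No other condition had a summit of any mark inside it. The nearest H3K4me1 summit of any condition lay at least 181900 bp away, and in LCC 201051 bp away. For the other marks, a TGFb H3K4me3 summit lay 11585 bp away and an SO1 H3K27ac summit 11597 bp away. All LCC libraries but H3K4me1 thus placed peaks inside the domain, and the 3 other conditions did not. The handling of reads that match several places is not known, and whether this domain holds repeated sequence was not tested. The counts below were also computed without it, an alternative chosen after seeing the data.

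The comparison across conditions asks whether these runs are also found after TGF-β1, in SO1 and in H2030. Runs made by the same rule in the other libraries met 15 of the 31 domains in TGFb, 48.4% (32.0 to 65.2), 12 in SO1, 38.7% (23.7 to 56.2), and 3 in H2030, 9.68% (3.35 to 24.9). Of all LCC sites 0.216%, 0.221% and 0.0845% were met, and the rule itself chose LCC sites with many summits, so nothing is read from that contrast. The 3 shares come from the same 31 domains and 1 H3K4me3 library per condition. Their intervals therefore do not measure a difference between conditions. All 3 conditions met domains 1, 24 and 25, of which 24 and 25 are uncertain as separate measurements. TGFb and SO1 without H2030 met 7 domains, TGFb alone 5 and SO1 alone 2, while 14 were met in no other condition. Domain 3 was met in SO1 and not in TGFb because its middle summit scored 10.0 in SO1 and 9.79 in TGFb.

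The shares were also low when the choice was made in the other conditions. TGFb had 49 such runs, SO1 54 and H2030 35. Their H3K4me3 lists held 23591, 24147 and 21697 summits of score 10 or more in the same order, against 21906 in LCC. LCC met 30.6% (19.5 to 44.5) of the TGFb, 22.2% (13.2 to 34.9) of the SO1 and 8.57% (2.96 to 22.4) of the H2030 runs. At runs of TGFb, LCC had exactly 2 summits in 19 of 49 and 1 in 10. At runs of SO1 it had 2 in 21 of 54 and 1 in 15, and at runs of H2030 2 in 7 and 1 in 12 of 35. LCC had 0 summits at 2, 3 and 12 of them in the same order. In the H2087-derived conditions most unmatched runs were therefore sites where LCC had fewer peaks, not sites without H3K4me3. With each list cut to its 21906 highest-scoring summits, TGFb had 30 runs, SO1 28 and H2030 39. LCC then met 43.3%, 28.6% and 7.69% of these, and they met 41.9%, 25.8% and 9.68% of the 31 domains. The higher run numbers of TGFb and SO1 were thus not seen at equal list length. The part of read depth in these counts was not tested.

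**Figure D3:**
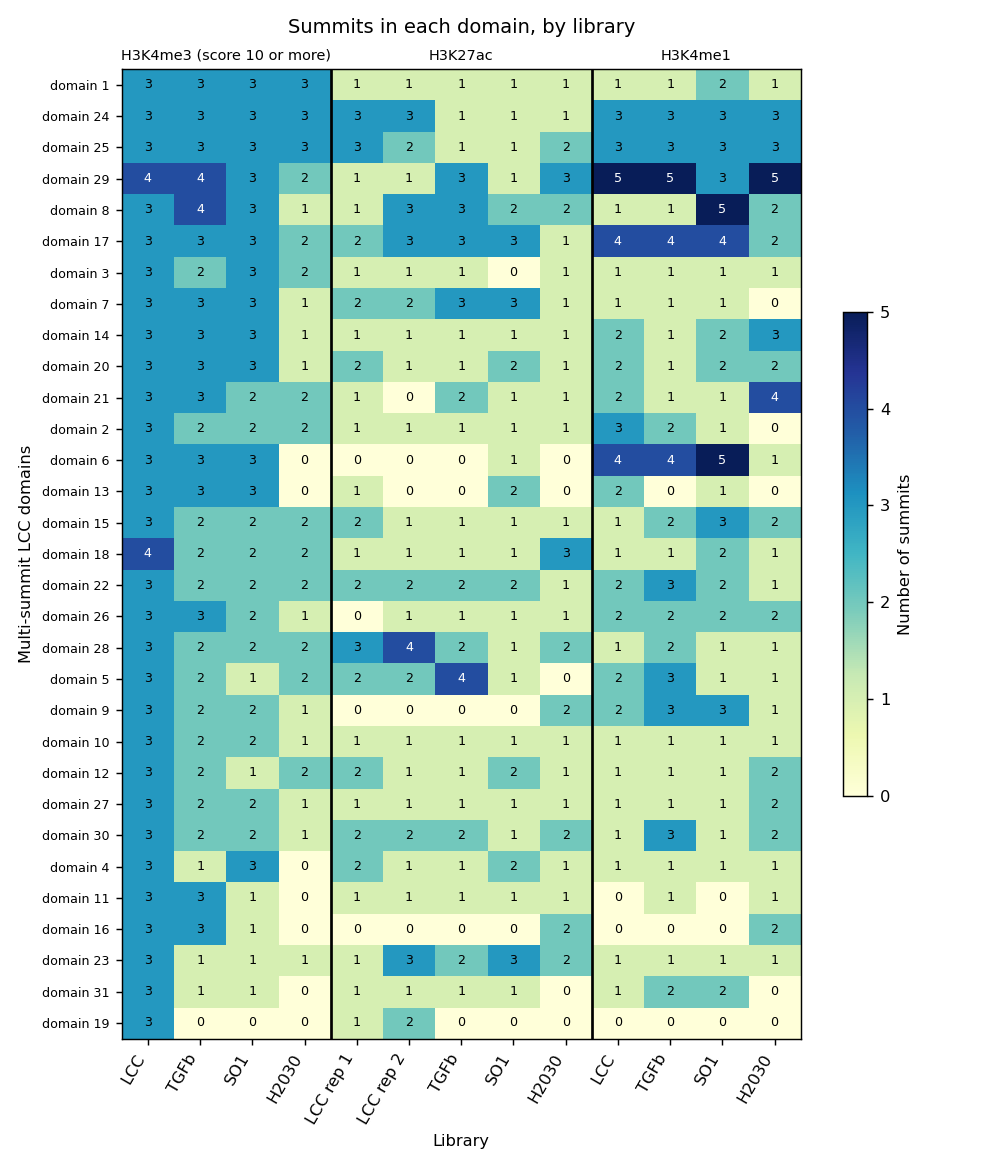
Number of summits inside each of the 31 domains (rows, span widened by 500 bp) in the 13 libraries (columns), for H3K4me3 with a score of 10 or more, H3K27ac and H3K4me1, coloured from 0 to 5. Rows are ordered by the summed H3K4me3 count of the other conditions: domains 1, 24 and 25 keep 3 H3K4me3 summits in every condition, and domain 19 at the bottom has 0 in TGFb, SO1 and H2030.

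H3K4me3 itself was rarely missing from a domain. TGFb had no H3K4me3 summit of any score in 1 of 31 domains (3.98% of all LCC sites), SO1 in 1 (8.06%) and H2030 in 4 (28.3%). At sites with 2 summits these shares were 0.372%, 3.16% and 16.4%. A longer span has more room for a summit, so nothing is read from the contrast with all sites. The domain without TGFb and SO1 H3K4me3 was domain 19 in both cases, so without it no domain lacked the mark in either. Over the 31 domains summits of score 10 or more numbered 95 in LCC, 74 in TGFb, 67 in SO1 and 41 in H2030. TGFb had fewer such summits than LCC in 16 domains (51.6%), SO1 in 19 (61.3%) and H2030 in 28 (90.3%), beside 7.19%, 11.4% and 32.2% of all sites. Since members were chosen for a high LCC count, a lower count elsewhere is built in. At sites with 2 LCC summits, chosen in the same way, the shares were 34.9%, 47.4% and 76.0%.

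The share with a partner in another condition was higher for the main peak of a run than for its companions. Within 500 bp of the strongest LCC summit TGFb had an H3K4me3 summit in 27 of 31 domains, 87.1% (71.1 to 94.9), SO1 in 27 and H2030 in 22, 71.0% (53.4 to 83.9). Of the 64 other summits 51 had one in TGFb, 79.7% (68.3 to 87.7), 40 in SO1, 62.5% (50.3 to 73.3), and 24 in H2030, 37.5% (26.7 to 49.7). The intervals of strongest and other summits overlap in TGFb and, narrowly, in SO1, and do not in H2030. Scores differ between them, so each was set beside single-summit sites with scores between its quartiles. Those had a TGFb summit in 96.6% and 96.0%, an SO1 summit in 94.0% and 85.8% and an H2030 summit in 73.7% and 41.2%. In TGFb and SO1 the interval of the companions lay below that of the matched single-summit sites, and in H2030 it held their share. For the strongest summits the interval lay just below in TGFb, and held the matched share in SO1 and H2030.

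Companions without a partner were also looked up within the joining distance. Of the 13 companions without a TGFb summit within 500 bp, 11 had one within 3 kb, as did 21 of 24 in SO1 and 29 of 40 in H2030. The rule places every companion within 3 kb of another LCC summit, so such a neighbour is largely built in and nothing is read from these counts. The weaker summits of pairs were found in 77.5%, 62.5% and 36.8%, close to the companions in the domains. A peak that is absent and one that was joined into its neighbour cannot be told apart without peak widths.

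**Figure D4:**
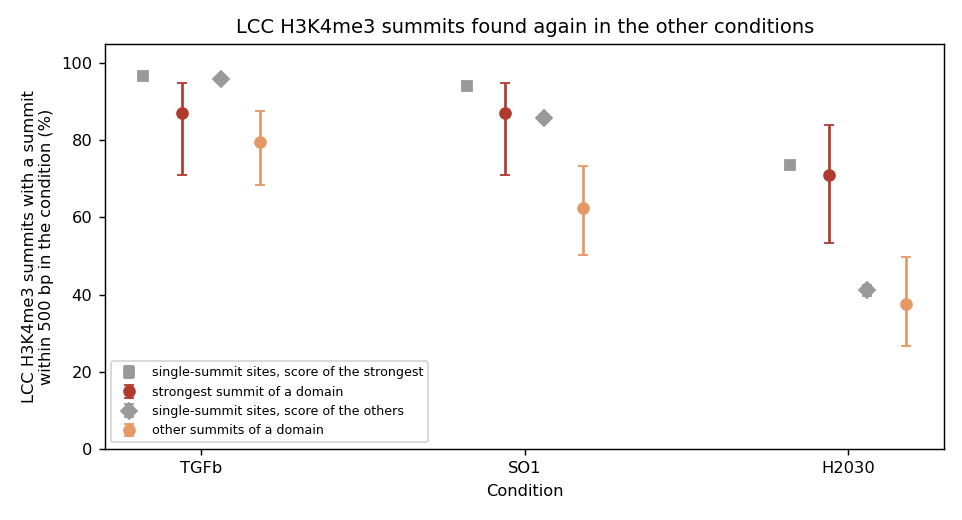
Share of LCC H3K4me3 summits, in percent, with an H3K4me3 summit of TGFb, SO1 or H2030 within 500 bp. Circles are the strongest (red, n = 31) and the other summits (orange, n = 64) of the domains, grey squares and diamonds are single-summit sites of like score, and bars are Wilson 95% intervals. The other summits of the domains stand at 79.7% in TGFb, 62.5% in SO1 and 37.5% in H2030.

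The domains with the largest difference in summit number differed in layout. In domain 23, LCC had H3K4me3 at 0, 824 and 2991 bp from the first summit, while TGFb, SO1 and H2030 each had 1 summit, at 44, 18 and 54 bp. The second strong LCC peak, with 460, thus had no summit of its own in any other library. H3K27ac summits near it, at 3013 bp in TGFb, 3006 bp in SO1 and 3023 bp in H2030, were nevertheless called there with scores of 229, 268 and 272, where LCC had one of 108 in replicate 2 and none in replicate 1. In domain 5 SO1 had 1 summit, scoring 608 and lying 524 bp in, where LCC had 320 at the start and 200 at 4457 bp. In domain 12 SO1 had 1 summit (605) where LCC had 3. These are domains with strong H3K4me3 in both conditions.

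Further domains differed in which summits had partners. In domain 18, TGFb, SO1 and H2030 each had 2 summits of score 10 or more, of which the strongest scored 238, 228 and 155, all near the second LCC summit and not at the first, which was the strongest in LCC. In domain 4, at chr4:1035418-1039723, LCC scored 11.7, 31.2 and 132, and the strongest, at 4305 bp, had no TGFb summit inside the widened domain. SO1 had all 3, with 18.6, 18.0 and 134, whereas H2030 had a single summit of 3.95. In domain 31 TGFb had summits of 5.40 and 35.2, SO1 one of 22.2, and H2030 no mark inside, with H3K4me3 95096 bp away. Domain 22, at chr17:6923373-6926949, had partners of its first 2 summits in all 3 conditions, and its last, 12.9 in LCC, scored 7.71 in TGFb.

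The domains with no H3K4me3 in H2030 at any score were 13, 16, 19 and 31. Domain 13, at chr12:16749528-16753432, had 3 summits in LCC (46.4, 13.5 and 13.3), in TGFb (59.4, 26.5 and 10.1) and in SO1 (93.7, 30.4 and 12.4), and the nearest H2030 H3K4me3 summit lay 236780 bp away. None of the 3 marks was found there in H2030, with H3K4me1 210678 bp away. The H3K4me3 run was thus found in each H2087-derived condition and not in H2030. The other marks were sparser there in TGFb as well, which had no H3K27ac or H3K4me1 inside, with the nearest 4696 and 598 bp away, and LCC replicate 2 had no H3K27ac. In domain 16 the marks differed between the lines: LCC had 3 H3K4me3 summits, TGFb 5 of up to 29.7 and SO1 1 of 271, with no H3K27ac or H3K4me1 summit inside in any of them, the nearest being an H3K27ac summit 740 bp outside in TGFb. H2030 had no H3K4me3 there, within 91200 bp, but 2 H3K27ac summits, of 56.8 and 6.33, and 2 H3K4me1 summits, of 15.8 and 11.5. Domain 9 differed as well. Only H2030 had H3K27ac there, with 52.9 and 81.5, beside a single H3K4me3 summit of 473, which was closest to the strongest LCC summit.

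Some runs were alike in the H2087-derived conditions. Domain 6 had 3 H3K4me3 summits in each, of which the last was the strongest, with 209 in LCC, 325 in TGFb and 352 in SO1, and H2030 had a single one of 6.78. It was without H3K27ac in TGFb as well, and in SO1 it had 1 weak summit of 5.84. Domain 7 had 3 summits in LCC, TGFb and SO1 at nearly the same places, and 1 in H2030. In domain 14, at chr12:49389233-49392888, the strongest LCC summit (346) lay at 3655 bp and the matching summits at 4109 bp in TGFb and 4145 bp in SO1, while H2030 had its main peak, of 122, at the other end. Domain 29 had 4 summits in TGFb as well, with 278, 48.4, 558 and 43.5. SO1 had 4, of which the second scored 9.95, and H2030 had 2, with 512 and 452.

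H3K27ac in the domains was set against the 2 LCC replicates. These had the same number of summits in 18 of 31 domains, 58.1% (40.8 to 73.6), beside 82.3% of single-summit sites, and 42 and 43 summits in all. TGFb had 42, SO1 39 and H2030 37. TGFb had fewer summits than both replicates in 4 domains, 12.9% (5.13 to 28.9; 3.49% of all sites), and more in 4 (5.38% of all sites). SO1 had fewer in 7, 22.6% (11.4 to 39.8; 6.79% of all sites), and more in 3 (5.77%). H2030 had fewer in 8, 25.8% (13.7 to 43.2; 17.3%), and more in 4 (6.89%). Longer regions hold more summits that can differ. At sites with 2 summits the shares with fewer were 10.4%, 12.5% and 24.7%, inside the intervals of the domains. The shares rest on the range between the replicates. Against replicate 1 alone, TGFb had fewer in 29.0% and more in 25.8%, SO1 more in 22.6%, and H2030 fewer in 45.2% and more in 22.6%. Against replicate 2 alone, SO1 had more in 22.6%.

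The domains with fewer H3K27ac summits in TGFb were 19, 24, 25 and 28, and all 4 had fewer in SO1 as well. In domain 24 LCC replicate 1 had H3K27ac scores of 90.6, 37.2 and 86.2 and replicate 2 had 213, 64.2 and 215, against single summits of 352 in TGFb and 330 in SO1. Domain 28 had scores of up to 176 in LCC and had 2 summits in TGFb, with 327 and 242, but 1 in SO1, with 179. In domains 24 and 28 the mark was thus present where its count was lower. SO1 also had fewer in domains 3, 5 and 30, and domain 3 had none, with its nearest SO1 summit 563 bp outside and so just past the widened span. The other conditions had H3K27ac there with scores from 278 to 428. More H3K27ac summits than in either replicate were found in domains 5, 7, 21 and 29 in TGFb, in 6, 7 and 13 in SO1, and in 9, 16, 18 and 29 in H2030. In domain 21 TGFb had a summit of 271 at 4548 bp, where LCC replicate 1 had one of 35.4 at 5028 bp and that of replicate 2 lay just past the widened span, 543 bp outside.

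H3K4me1 varied in both directions to a like extent. TGFb had fewer summits than LCC in 5 domains (10.5% of all sites) and more in 8 (10.1%), SO1 fewer in 5 (10.9%) and more in 7 (11.4%), and H2030 fewer in 9 (19.8%) and more in 9 (9.92%). Longer regions hold more summits that can differ. At sites with 2 summits the shares with fewer were 17.1%, 18.4% and 27.1%, in the same order of conditions. Those with more were 19.1%, 21.9% and 22.1%, and all these shares lay inside the intervals of the domains. The totals were 52 in LCC, 55 in TGFb, 56 in SO1 and 48 in H2030. The largest single difference was in domain 8, with 1 H3K4me1 summit in LCC, 1 in TGFb, 5 in SO1 and 2 in H2030. No replicate exists for H3K4me1, so the error of these counts is unknown. Domain 15, at chr12:120728757-120731457, had 1, 2, 3 and 2 in the same order, while its strongest H3K27ac summit lay at 1070 bp in both LCC replicates, 1083 bp in TGFb, 1072 bp in SO1 and 1094 bp in H2030.

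Some sites with a single counted LCC summit were runs in another condition. Only sites with 1 or 2 LCC summits of score 10 or more were considered, so runs without LCC H3K4me3 could not enter. The 4 taken for TGFb had 1 summit in LCC and 3 in TGFb. At chr17:74260717-74264039 the strongest H3K4me3 summit scored 557 in LCC and 635 in TGFb, and at chr6:36095787-36098966 398 and 467. The remaining ones were chr12:57849913-57853308 and chr1:10853934-10856572. H3K27ac numbers in these 4 were 3, 1, 1 and 0 in LCC replicate 1 and 2, 1, 1 and 0 in TGFb. None of these 4 thus had more H3K27ac peaks in TGFb than in either LCC replicate.

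SO1 had 4 summits against 1 of score 10 or more in LCC at chr9:21681627-21688555, where 2 further LCC summits fell under that score. It had 3 against 1 at chr10:79785336-79789066, chr3:48598354-48601828 and chr20:45944300-45947482. At the last of these the strongest H3K4me3 summit scored 67.9 in LCC, 130 in TGFb and 310 in SO1, and no H2030 summit was found. H2030 had 4 against 1 at chr1:27320460-27325781 and chr19:11486157-11491603, and 3 against 1 at chr1:38478603-38481804 and chr5:134181910-134186918. H3K4me1 was present in LCC at 7 of these 8 sites, the exception being the one on chromosome 3.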

How the data were processed

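ChIP-seq peak lists of 3 histone marks in 4 conditions were analysed. Bowtie2, SAMtools, deepTools and the build hg19 are named per the submitters' processing notes. No peak caller, version, control or setting is stated there. Each list gives 1 summit per peak with a score, deposited by the authors and read here as a −log10 of a p or q value; which of these is not settled. Peaks were listed per library, with no widths and no read depth. Peak names inside the lists carry internal codes that differ from the sample labels, and each list was taken as the condition of the sample it was deposited under. Input libraries were not analysed here. Chromosomes 1 to 22 and X were kept.

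Summits were joined and counted with Python 3.11.15 and pandas 2.3.3, and Wilson intervals were computed at 95%. A domain was met when a run of another condition, made by the same rule, overlapped it by at least 1 bp. The joining step was tested on simulated data. No significance test was run, since conditions have 1 library per mark. The rule for named domains took the 10 with most summits (ties by span), the 4 domains with the largest lower count per condition, the 4 sites with the largest higher count per condition among sites with 1 or 2 LCC summits, and up to 4 without H3K27ac or without H3K4me1. Other members were named so that all are accounted for. The planned gene content and gene lists were not run, since no hg19 annotation was used here. The members and lists were chosen with earlier results of these data known.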

Additional observations from a re-analysis of the deposited data

How the results depend on the processing

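Of 163 values computed under alternatives, 110 stayed within the interval of the reported value (counts within 1.5 times) and 53 moved. The number of domains, 31, became 12 at a score minimum of 20, 144 with no minimum, 10 when joined within 2 kb, 147 within 5 kb and 2 when 4 or more summits were asked for. H3K27ac of both LCC replicates was in 91.7% at a minimum of 20, 100% with 4 summits, 58.1% without widening and 45.2% in the fixed window, and LCC H3K4me1 in 100%, 100% and, in the fixed window, 51.6%. Domains without TGFb, SO1 and H2030 H3K4me3 numbered 0, 0 and 0 at a minimum of 20 and with 4 summits, and 7, 12 and 39 with no minimum. Joining within 2 kb gave 2 without H2030, and within 5 kb gave 3 without SO1 and 9 without H2030. No widening gave 2 without TGFb and 4 without SO1. Lists shortened to equal length gave 7 without H2030. That setting leaves out the weakest H2030 summits, whereas the main count of 4 took summits of any score. Without domain 19, an alternative chosen after seeing the data, TGFb and SO1 were absent from 0 domains.

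The share met was 25.0% for H2030 at a minimum of 20 (25.0% in reverse), 21.5% for SO1 with no minimum, and within 5 kb 66.7% for TGFb (54.4% in reverse) and 62.6% for SO1 (46.2% in reverse). With 4 summits the reverse share of TGFb was 16.7%, and those of SO1 and H2030 were 0% both ways. H3K27ac was lower than in both LCC replicates in 30.0% for TGFb within 2 kb and 9.68% for SO1 without widening, and higher in 0% for H2030 within 2 kb and 3.23% for SO1 with H3K27ac scores of at least 10. With 4 summits, of 2 domains, it was lower in 0% for TGFb, 0% for SO1 and 0% for H2030, and higher in 50.0%, 0% and 100%. Without LCC replicate 1 or 2, lower counts ranged from 16.1% to 29.0% for TGFb and from 32.3% to 45.2% for H2030, since 1 replicate gives a narrower range, and 12 of 14 such values stayed within the interval. For single-summit sites H3K27ac and H3K4me1 shares were 53.6% and 45.6% when matched by score.

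No paired analysis was possible because replicate numbers are shared only by LCC H3K27ac and its input, which was not analysed here, and no test was run. The number of domains depends on the score minimum and joining distance, depth is unknown, and all comparisons between conditions rest on 1 library per mark.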

Other observations

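TGFb and SO1 shared 19 runs of 3 or more H3K4me3 summits, of which 9 were not met by an LCC run. LCC had 2 summits of score 10 or more at 7 of these 9 and 1 at another. At the remaining one, chr21:10595921-10602347, TGFb and SO1 each had 5 summits and LCC 3, which were not all joined into a run by the rule. LCC had no H3K4me1 summit there, and H3K27ac had 0 and 2 summits in its replicates.

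The run with most summits in any condition was found in H2030 at chrX:114960735-114996539. It held 13 H3K4me3 summits over 35804 bp, with scores from 132 to 194, and the 12 gaps between them measured 2967 to 2995 bp with a median of 2986 bp. The same span held 13 H3K27ac and 26 H3K4me1 summits of H2030, whose spacing was not measured. The H3K4me3 gaps were nearly constant, and whether the span is a repeated sequence was not tested. The handling of reads that match several places is not known, so these 13 summits are uncertain as separate measurements. LCC, TGFb and SO1 had no summit of any of the 3 marks there.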
